A study of Mus musculus with 2 samples.

Results

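The mir-29 family of the mouse comprises 4 microRNA genes, Mir29a, Mir29b-1, Mir29b-2 and Mir29c, and was examined in gastrocnemius, a calf muscle that drives the ankle. The genes were chosen by their names in the GENCODE M21 annotation and make up 4 of the 2202 microRNA genes counted. They sit in pairs at separate loci, Mir29a with Mir29b-1 on chromosome 6 and Mir29b-2 with Mir29c on chromosome 1. The data were microRNA-seq libraries of whole muscle from adult male B6CASTF1/J mice aged 18 to 20 months, hybrids of C57BL/6J and CAST/EiJ parents, with inserts under 30 nt. The labels gave 1 group without any treatment, genotype or age contrast, and in it 2 libraries, biological replicates 1 and 2. These came from separate biosamples under the same donor label, so the labels do not say whether separate animals were used, and the spread between them may be technical.

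MicroRNAs are cut from a hairpin precursor and guide silencing complexes to messenger RNAs that match their seed, the bases near the 5′ end. The mir-29 family is best known as a repressor of extracellular matrix, with collagens, elastin and fibrillin among its targets, and its loss has been linked to fibrosis in several organs. In mouse muscle it is also known as a regulator of myoblast differentiation, and miR-29b has been linked to atrophy through insulin-like growth factor signalling.

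The sequences show which counts can be told apart. The 3p arms below, from RefSeq on GRCm38.p6, are the guide strands of the family, and the 5p arms are those of the Mir29b genes. Capitals mark the seed, bases 2 to 8 from the 5′ end.
miR-29a-3p: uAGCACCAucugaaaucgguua
miR-29c-3p: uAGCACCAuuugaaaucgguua
miR-29b-3p: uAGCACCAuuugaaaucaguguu
miR-29b-1-5p: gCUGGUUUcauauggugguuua
miR-29b-2-5p: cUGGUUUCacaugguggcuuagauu
The 3 guide strands share 1 seed, and no other mature microRNA of the RefSeq table carries it. Counted from 1 at the 5′ end, miR-29a-3p and miR-29c-3p differ only by C10U, outside the seed. From miR-29c-3p to miR-29b-3p there are 3 substitutions over the first 22 bases, G18A, U21G and A22U.

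Mir29b-1 and Mir29b-2 encode the same miR-29b-3p, while their 5p arms differ. The sequence AGUGUU at the end of miR-29b-3p has been linked in human cells to its nuclear localisation. Of 1679 mature microRNAs in the table, searched on the RNA strand, 12 held it (0.715%) and 2 ended in it (0.119%). Neither miR-29a-3p nor miR-29c-3p held it. The tables give 1 count per gene, so the arms are not separated in the levels that follow.

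On mm10, Mir29a (ENSMUSG00000065610.1) lies on chromosome 6 from 31062660 to 31062747 and Mir29b-1 (ENSMUSG00000065604.2) from 31063023 to 31063093, both on the minus strand. Mir29b-1 shares the 2 bases at its 5′ end with an exon of Gm27019, a long non-coding RNA gene on the same strand, and Mir29a overlaps no other annotated gene. Mir29b-2 (ENSMUSG00000065412.3) lies on chromosome 1 from 195037040 to 195037120 and Mir29c (ENSMUSG00000065548.1) from 195037547 to 195037634, both on the plus strand. Both fall in an exon of 1 of the 4 annotated transcripts of the non-coding gene A330023F24Rik. On the other strand, M21 has them overlap the untranslated part of 1 of 4 transcripts of Cd46, which encodes a complement regulatory protein. The RefSeq model of Cd46 overlaps neither. In each pair the Mir29b gene comes first in the direction of the genes, 275 bases before Mir29a and 426 bases before Mir29c. By alignment, the precursors of Mir29a and Mir29c were 78.0% identical and those of Mir29b-1 and Mir29b-2 73.2%. Within the loci, identity was 60.4% between Mir29a and Mir29b-1 and 62.8% between Mir29b-2 and Mir29c, so each gene was closer to its counterpart at the other locus.

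**Figure D1:**
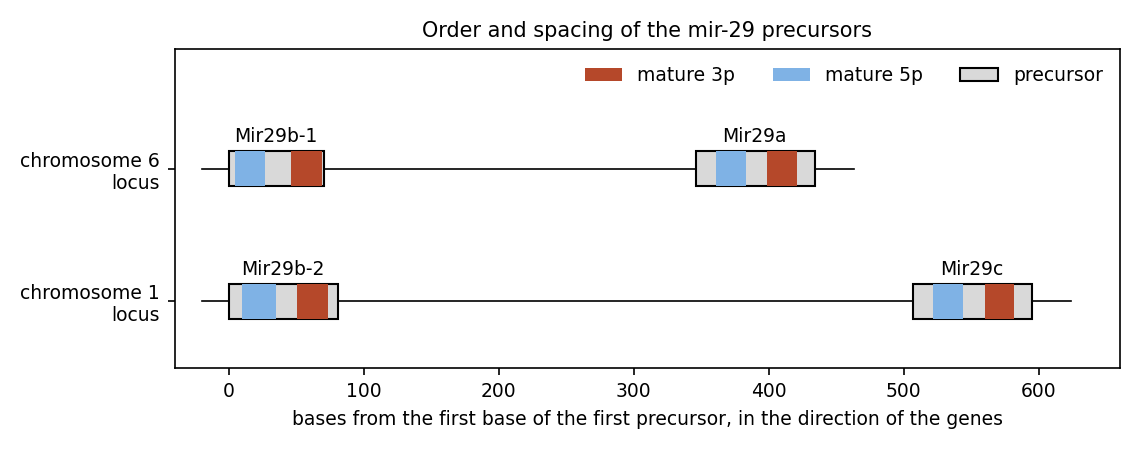
Precursors (grey) and mature 5p and 3p arms (colours) of the mir-29 loci, drawn to scale in bases from the first base of the first precursor in the direction of the genes. The Mir29b gene comes first at both loci, followed by Mir29a after 275 bases and by Mir29c after 426 bases.

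Reads assigned to microRNA genes numbered 4442692 in replicate 1, against 2156222 in replicate 2, so replicate 1 was 2.06-fold deeper. Reads mapping to several places, 73.8% of the table in replicate 1 and 70.2% in replicate 2, are in no gene count. The libraries also stood apart in content. The 8 striated muscle markers all had counts in both libraries and summed to 12172 CPM (counts per 1000000 assigned reads) in replicate 1, against 62284 CPM in replicate 2. Mir206 made up 97.0% of that sum in replicate 1 and 98.8% in replicate 2. The sum and these shares cover counted reads only. By gene the markers were divided, 3 being 2-fold or more higher in replicate 1 (Mir1a-2, Mir133b and Mir1a-1) and 3 in replicate 2 (Mir206, Mir499 and Mir208b). The other 2 were within 2-fold. Over the 380 genes with 10 or more summed counts, the shares were 20.5% in replicate 1 and 11.8% in replicate 2. Of the 8 markers, 5 share 20 bases with another microRNA gene, namely the Mir1a and Mir133 genes, so their counts may leave out reads. The 3 higher in replicate 1 are among these 5, while Mir206, Mir499 and Mir208b share no such stretch. The endothelial gene Mir126a stood at 104418 and 55386 CPM in replicates 1 and 2. Intervals below are exact 95% Clopper-Pearson intervals and cover counting error only.

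Mir29a was the most abundant gene of the family and ranked 18 of 2202 by mean level. It stood at 17003 CPM in replicate 1, against 12074 CPM in replicate 2, from 75537 and 26035 counts, a mean of 14538 ± 3485 CPM (SD, n = 2). Mir29c, the other gene with a unique guide strand, stood at 3796 CPM in replicate 1, against 1273 CPM in replicate 2, from 16864 and 2744 counts, with a mean of 2534 ± 1784 CPM and rank 41. Replicate 1 was the higher library for both genes, and the lowest value of Mir29a lay above the highest of Mir29c.

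The Mir29b genes were far lower. Mir29b-1 stood at 52.2 CPM in replicate 1, against 48.2 CPM in replicate 2, from 232 and 104 counts, with a mean of 50.2 ± 2.82 CPM and rank 167. Mir29b-2 stood at 31.7 CPM in replicate 1, against 16.7 CPM in replicate 2, from 141 and 36 counts, with a mean of 24.2 ± 10.6 CPM and rank 204. The values of Mir29b-1 and Mir29b-2 did not overlap, and Mir29b-1 was the higher in both libraries. All 4 genes lay well above the floor of 3 counts, 0.675 CPM in replicate 1 and 1.39 CPM in replicate 2. No member had a count on the opposite strand, and the counts without strand equalled those on the strand for all 4.

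How far the low Mir29b levels reflect their transcripts cannot be told from these counts. Stretches of 22 bases that occur exactly in another counted microRNA gene made up 5 of 50 in Mir29b-1, 4 of 60 in Mir29b-2, 1 of 67 in Mir29c and 0 of 67 in Mir29a. With stretches of 18 bases the numbers were 11 of 54, 8 of 64, 5 of 71 and 0 of 71. Those of the Mir29b genes include the whole of miR-29b-3p, so a read of that guide strand has at least 2 equal places in the genome. Reads counted for either Mir29b gene had to differ from the other one, as their 5p arms do. Exact reads of that guide strand alone are therefore in the count of neither Mir29b gene. The order between the Mir29b genes and the other mir-29 genes is uncertain. Sequence repeats outside microRNA genes were not searched.

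Genes next to the members by mean level were Mir139 and Mir149 for Mir29a, Mir98 and Mir361 for Mir29c, Mir1198 and Mir505 for Mir29b-1, and Mir188 and Mir677 for Mir29b-2. For all 8 the values of the libraries overlapped with those of the member, so these ranks are not separated by the spread. The genes most like each member were taken by the distance between log2(CPM + 1) values over the 2 libraries. They were Mir149 (distance 0.35), Mir100 and Mir21a for Mir29a, and Mir328 (0.81), Mir92-1 and Mir193b for Mir29c. For Mir29b-1 they were Mir5099 (0.092), Mir3061 and Mir1198, and for Mir29b-2 Mir6516 (0.12), Mir18 and Mir133b. With 2 libraries such likeness describes level and direction only.

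The loci were set against each other within each library. The chromosome 6 pair took 81.7% of the family's counts in replicate 1 (81.4 to 81.9) and 90.4% in replicate 2 (90.04 to 90.7), or 86.0% ± 6.16 (SD, n = 2). The chromosome 1 pair took 18.3% in replicate 1 and 9.61% in replicate 2. Chromosome 6 was thus the higher locus in both libraries, which an exact two-sided sign-flip test over 2 libraries could not show with a p under 0.5. Among the counted reads, which leave out exact reads of miR-29b-3p, nearly all of each locus was a single gene. Mir29a made up 81.4% of the family's counts in replicate 1 and 90.03% in replicate 2, and Mir29c 18.2% in replicate 1 and 9.49% in replicate 2. Both Mir29b genes together made up 0.402% of the counts in replicate 1 and 0.484% in replicate 2.

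Counts per annotated base gave the same order. Per base, Mir29a was 4.48 times Mir29c in replicate 1 and 9.49 times in replicate 2, since both precursors are 88 bases long. Per base, Mir29b-1 was 1.88 times Mir29b-2 in replicate 1 and 3.30 times in replicate 2. The chromosome 6 gene exceeded its counterpart in both comparisons and both libraries. For Mir29a over Mir29c the ratio was larger in replicate 2. In counts, the intervals of Mir29b-1 over Mir29b-2 overlapped, at 1.33 to 2.04 in replicate 1 and 1.96 to 4.35 in replicate 2. That comparison also leaves out reads that fit both Mir29b genes equally. Within the loci, Mir29a was 263 and 202 times Mir29b-1 per base in replicates 1 and 2, and Mir29c 110 and 70.2 times Mir29b-2 in replicates 1 and 2. A read spans a whole mature microRNA, so counts need not grow with precursor length.

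**Figure D2:**
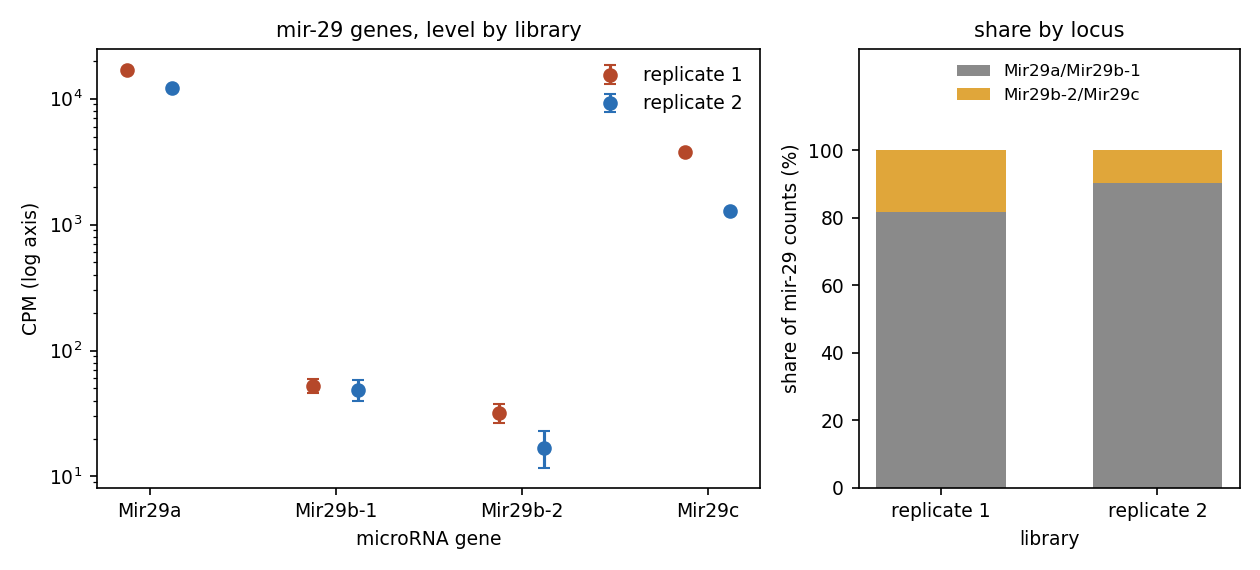
Left, the level of each mir-29 gene in CPM on a log axis in replicates 1 and 2, with exact 95% intervals of the counts, which are narrower than the points for Mir29a and Mir29c. Right, the share of the family's counts from each locus, where the chromosome 1 pair Mir29b-2 and Mir29c takes 18.3% in replicate 1 and 9.61% in replicate 2.

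The ratio between the libraries differed among the members. Each side is 1 library with the same labels, so the ratio has no replicate check and carries no p. Mir29c had a log2 ratio of replicate 1 over replicate 2, on the CPM + 1 scale, of 1.58 (1.52 to 1.64), a 2.98-fold difference. Mir29b-2, its neighbour, stood at 0.89 (0.39 to 1.497). Mir29a stood at 0.49 (0.47 to 0.51) and Mir29b-1 at 0.11 (−0.23 to 0.46), and the value of Mir29b-1 turned negative, −0.20, when levels were scaled to all reads in the table. The chromosome 1 pair as a whole was 2.97-fold higher in replicate 1 and the chromosome 6 pair 1.41-fold. By gene, Mir29c exceeded Mir29a by 1.08 in log2 ratio and Mir29b-2 exceeded Mir29b-1 by 0.78. The interval of Mir29c lay apart from that of Mir29a, while those of Mir29b-2 and Mir29b-1 overlapped.

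These ratios were read against those of all genes. The summed count reached 10 in 380 genes. Of these, 123 (32.4%) differed 2-fold or more, 78 (20.5%) being higher in replicate 1 and 45 (11.8%) in replicate 2. All 4 members were among the 380, and 1 of them, Mir29c, was 2-fold or more higher in replicate 1, with none 2-fold higher in replicate 2. The members' median log2 ratio was 0.69, beside 0.06 over the 380 genes. Among the 380 genes, 9.47% had a higher ratio than Mir29c, 23.2% than Mir29b-2, 35% than Mir29a and 48.4% than Mir29b-1. The SD of the log2 ratios was 1.13 over the 228 genes with 100 or more counts, larger than the difference between Mir29c and Mir29a. That SD describes single ratios and not differences between genes, so it is only a rough measure for that difference.

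**Figure D3:**
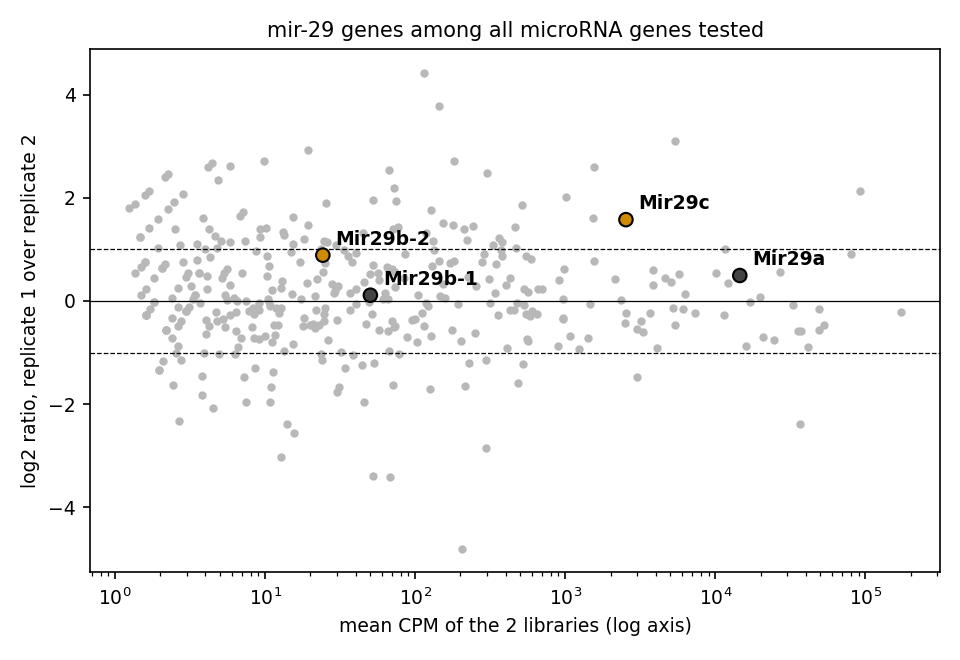
Log2 ratio of replicate 1 over replicate 2 against mean CPM on a log axis for the 380 genes with 10 or more counts, with the mir-29 genes marked (dark for chromosome 6, yellow for chromosome 1). Dashed lines mark 2-fold, and Mir29c at 1.58 is the only mir-29 gene beyond them.

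Cell type markers moved between the libraries as well, in both directions. The erythroid genes Mir451a and Mir144 summed to 777 CPM in replicate 1 and 109 CPM in replicate 2, and endothelial Mir126a had a log2 ratio of 0.91. Of the fibroblast markers, Mir214 had a log2 ratio of 2.02 and Mir140 of −1.46, Mir199b of 0.76 and Mir199a-2 of 0.98. Mir199a-1 had no count, but all 3 Mir199 genes share 20 bases with another microRNA gene, so their counts may leave out reads. The fibroblast list summed to 3256 CPM in replicate 1 and 4837 CPM in replicate 2, of which Mir140 made up 49.2% in replicate 1 and 91.4% in replicate 2. Its 4 genes with 10 or more counts had a median log2 ratio of 0.87, so the median and the sum differed in direction. The mural genes Mir143 and Mir145a summed to 48844 and 56840 CPM in replicates 1 and 2, and 4 leukocyte genes to 2285 and 3632 CPM in replicates 1 and 2. Of the leukocyte genes, Mir150 (log2 ratio −0.71) and Mir155 (−0.93) were higher in replicate 2, and Mir142 (0.78) and Mir223 (0.33) in replicate 1. The neural list summed to 330 and 386 CPM in replicates 1 and 2, of which Mir338 made up 93.6% and 82.3%. Of its 4 genes with 10 or more counts, 1 was 2-fold or more higher in replicate 1 and 2 in replicate 2. Over the 380 genes these shares were 20.5% and 11.8%. Of its 10 genes, 6 were at 0 in replicate 1 and 5 in replicate 2, the Mir124a genes among them. Over all 2202 genes, 1599 were at 0 in replicate 1 and 1678 in replicate 2. Of the 10, 8 share 20 bases with another microRNA gene, the Mir124a and Mir9 genes among them. Reads mapping to several places are not counted, so a 0 for these genes need not mean absence. The 7 epithelial genes summed to 205 and 225 CPM in replicates 1 and 2, of which Mir203 made up 68.9% and 93.4% in replicates 1 and 2. Of the 5 epithelial genes with 10 or more counts, 3 were 2-fold or more higher in replicate 1 and none in replicate 2. These were Mir205 (log2 ratio 2.93), Mir200b (2.61) and Mir429 (1.91), and the median of the 5 was 1.91. Over the 380 genes, 20.5% were higher in replicate 1 and 11.8% in replicate 2. In replicate 2, Mir205, Mir200b and Mir429 had 8, 2 and 1 counts, those of Mir200b and Mir429 being below the floor of 3. In replicates 1 and 2, the liver gene Mir122 stood at 13.3 and 396 CPM. The part of these markers in the mir-29 ratios was not tested. In whole muscle, fewer cells of a type and less RNA per cell cannot be told apart.

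Other microRNA genes known from matrix and fibrosis were read beside the family. The 16 genes of the list summed to 21257 CPM in replicate 1 and 15112 CPM in replicate 2, beside 20882 CPM in replicate 1 and 13412 CPM in replicate 2 for the mir-29 family. Mir21a, linked to fibrosis as a promoter of it, led with 15455 CPM in replicate 1, against 7683 CPM in replicate 2, and its log2 ratio of 1.01 lay at the 2-fold line. Mir140, known from cartilage, had 1602 CPM in replicate 1, against 4421 CPM in replicate 2. Mir155, known from inflammation, had 853 CPM in replicate 1, against 1625 CPM in replicate 2 (log2 ratio −0.93). Of 14 genes with 10 or more counts, 6 were 2-fold or more higher in replicate 1 and 1, Mir140, was so in replicate 2, while 7 were within 2-fold. Over all 380 genes the shares were 20.5% higher in replicate 1 and 11.8% in replicate 2. The 6 include Mir21a at the 2-fold line and Mir200b, whose 2 counts in replicate 2 lay below the floor of 3. They also include Mir101a and Mir101b, which share 20 bases with another microRNA gene. The others were Mir214 and Mir192. The median log2 ratio of the 14 was 0.87, beside 0.06 over the 380 genes. Of the 16 genes listed, 7 share 20 bases with another microRNA gene, so their counts may leave out reads.

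The microRNA genes known from muscle growth and atrophy moved in both directions. Of 20 genes, all with 10 or more counts, 4 were 2-fold or more higher in replicate 1, 5 in replicate 2 and 11 within 2-fold, beside 20.5% and 11.8% of the 380 genes higher in replicates 1 and 2. Mir23a, which represses atrophy ligases in mouse muscle, had 28833 CPM in replicate 1 and 53564 CPM in replicate 2. Mir206, which promotes myoblast differentiation, had 11810 CPM in replicate 1, against 61540 CPM in replicate 2. Mir27b, known to repress Pax3 in mouse muscle progenitors, had 5740 CPM in replicate 1, against 4446 CPM in replicate 2. Of the 20 genes, 12 share 20 bases with another microRNA gene, Mir23a and Mir27b among them, so their counts may leave out reads. The list's median log2 ratio was 0.30, beside 0.06 over the 380 genes, while its sum gave −1.22, so the typical gene and the total differed in sign. The sum of the mir-29 family was 1.56-fold higher in replicate 1 (log2 ratio 0.64, 0.62 to 0.66).

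Ratios within other multi-locus families are given for comparison. Both Mir30c genes, both Mir26a genes and all 4 genes of mir-101 and mir-128 share 20 bases with another microRNA gene. Their counts may leave out reads, as those of the Mir29b genes do. The mir-30 family summed to 51846 CPM in replicate 1 and 35688 CPM in replicate 2, with Mir30a, Mir30d, Mir30e and Mir30b between 0.52 and 0.75 in log2 ratio and Mir30c-2 and Mir30c-1 at −0.77 and −0.98. The mir-26 family was nearly all Mir26b (log2 ratio −0.58), with Mir26a-2 at 0.67 and Mir26a-1 at −3.41. Mir101b and Mir101a stood at 1.86 and 1.40, and Mir128-1 and Mir128-2 at −0.26 and −1.95. The mir-29 members spanned 0.11 to 1.58, with no member below 0 when scaled to assigned reads and Mir29b-1 at −0.20 when scaled to all reads in the table. Each of these ratios has 1 library on each side, so no p is given for differences between the families.

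**Figure D4:**
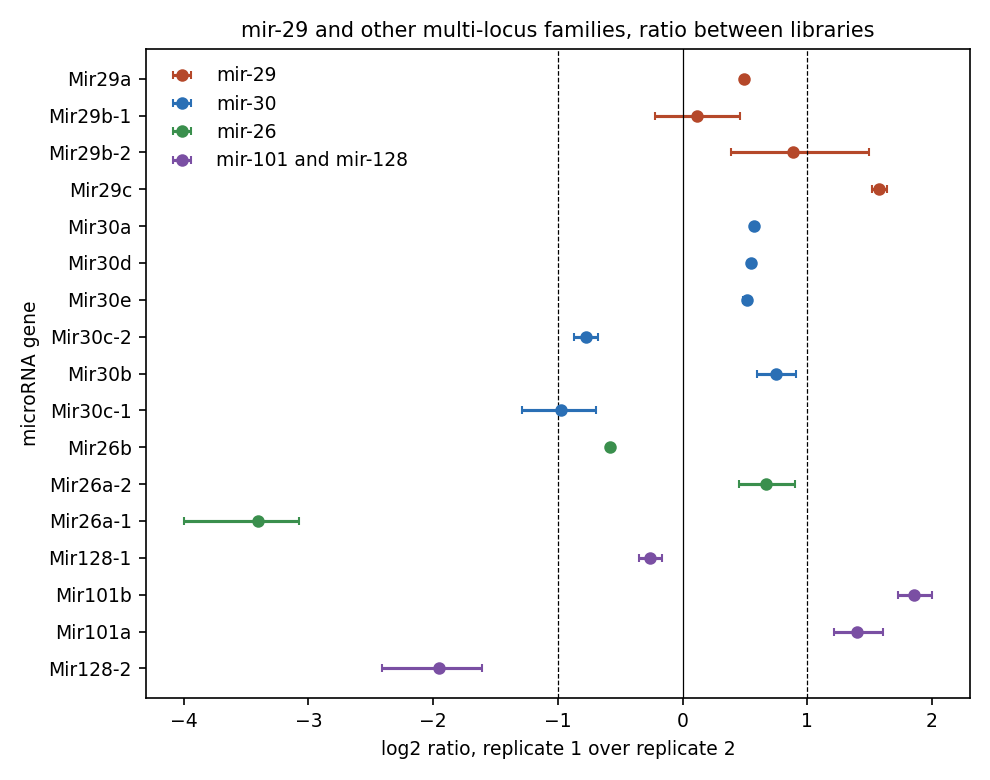
Log2 ratio of replicate 1 over replicate 2 for the 4 mir-29 genes and the genes of the mir-30, mir-26, mir-101 and mir-128 families, with exact 95% counting intervals and dashed lines at 2-fold. The mir-29 genes lie between 0.11 and 1.58 (Mir29b-1 at −0.20 when scaled to all reads in the table), and the mir-30 and mir-26 families hold genes on both sides of 0.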

How the data were processed

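MicroRNA-seq of gastrocnemius was deposited as 1 table per library of raw counts of reads per microRNA gene, on mm10 with GENCODE M21, per the readmes deposited with them. Aligner, trimming and counter: not given in the sources used here. The authors left the 3 count columns unnamed, and their values fit reads without strand, reads on the strand of the gene (used here) and reads on the other strand. Reads not assigned to a microRNA gene were kept out of library totals. They made up all but 15.7% of the table in replicate 1 and all but 19.8% in replicate 2. Most were reads mapping to several places, 73.8% of the table in replicate 1 and 70.2% in replicate 2.

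CPM were computed over all microRNA genes. The ratio of replicate 1 over replicate 2 was taken as log2 of CPM + 1 with plain totals. Genes with 10 or more summed counts were kept, and 2-fold was the threshold. Intervals are Clopper-Pearson intervals of the counts without the added 1 CPM. With 1 group there was no contrast for edgeR's quasi-likelihood test. The ratio step was checked on data simulated with counting error only, so the check does not cover the larger spread between these libraries. Precursor identity came from global alignment, and coordinates from M21 and RefSeq GRCm38.p6, whose mir-29 precursors were identical. Chi-square per degree of freedom between the libraries was 1359, so they were not treated as a single library.

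The members, the 14 gene lists and the rule for named genes were chosen with earlier results of these data known. The rule named the members, the 3 genes most like each, the 3 most abundant genes of each list, the family lists in full and genes within 10 kb. Other genes were named after their values were seen. Mir146a of the leukocyte list matched no counted gene. The alternatives were counts without strand, totals without the most abundant gene, edgeR's TMM, DESeq2's size factors, pseudocounts of 0.1 and 5 CPM, other count filters, genes sharing 20 bases left out, counts per base and each library alone. Totals of all reads in the table were added after seeing the data. Tools were Python 3.11.15, numpy 2.4.6, pandas 2.3.3, scipy 1.17.1, Biopython 1.88, matplotlib 3.10.9, R 4.3.3, edgeR 4.0.16 and DESeq2 1.42.0.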

Additional observations from a re-analysis of the deposited data

How the results depend on the processing

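The share of the chromosome 6 pair averaged 86.0% per gene and per base, and either library alone gave 81.7% and 90.4%. Counts without strand leave it as it was by construction, and with 2 libraries leaving out either one cannot move a mean by more than the SD, so these settings say nothing about stability. With counts without strand, Mir29a averaged 20232 CPM and Mir29b-1 69.7 CPM, since the members' counts stayed and the totals fell. Mir29b-1 averaged 60.7 CPM without the most abundant gene. Scaled to all reads in the table, Mir29a, Mir29b-1, Mir29b-2 and Mir29c averaged 2528, 8.87, 4.14 and 423 per 1000000 reads. Library scaling shifts the log2 ratios of abundant genes by about the same amount, and those of low genes by other amounts because of the added 1 CPM. The shift was −0.34 with all reads in the table, where Mir29b-2 stood at 0.47, which put the median of all genes at −0.17, and −0.093 with TMM. The ratio of Mir29a was 0.54 without strand, 0.45 without the most abundant gene, 0.15 with all reads, 0.40 with TMM and 0.44 with DESeq2's size factors. Mir29c stood at 1.23 with all reads and 1.48 with TMM, and Mir29b-1 reversed to −0.20 with all reads. With all reads, 29 genes were 2-fold or more higher in replicate 1 and 49 in replicate 2, against 78 and 45 with assigned reads. Which library held more of these genes thus depended on the scaling. A pseudocount of 5 CPM gave 45 higher in replicate 1 and 26 in replicate 2, and a minimum of 100 counts gave 44 and 23, from fewer genes. The low counts of Mir29b-2 and Mir29b-1 limit their ratios most. No paired analysis was possible because the labels give a single group.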
